A study of Rattus norvegicus with 12 samples.

Results

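The genes of sterol and fatty acid synthesis were followed in H9c2(2-1), a rat myoblast line derived from embryonic heart, through 36 h without glucose and through the same deprivation with the drug empagliflozin. The 35 members were chosen by gene symbol and matched 36 of the 35966 rows of the deposited table, because the symbol Elovl5 stands on 2 rows. They fall into 5 regulators, a sterol branch of 19 genes and a fatty acid branch of 11 genes on 12 rows. All 12 libraries come from wild-type cells, 3 libraries for each of 4 groups: control cells in high-glucose DMEM with 10% serum, glucose-deprived (GD) cells, and GD cells that also received EMP, as the labels write empagliflozin, at 100 or 200 µM. No source used here states the serum of the deprived groups or the culture time of the control. The solvent of the drug is not stated either, nor if each library is its own culture. The drug and its solvent therefore cannot be told apart. Nor can the lack of glucose and any difference in serum or culture time between control and deprived cells. Below, deprivation stands for all that differed between these groups. The p-values measure the spread between these libraries only.

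Cells make cholesterol from acetyl-CoA through mevalonate, squalene and lanosterol, and make fatty acids from the same acetyl-CoA. Both routes are switched by the sterol regulatory element binding proteins, transcription factors that are anchored in the endoplasmic reticulum together with Scap. The Insig proteins retain this complex when sterols are abundant. When sterols run low, Scap carries the factors to the Golgi, where they are cut free to enter the nucleus. The product of Srebf2 acts mainly on sterol genes, and a short form made from Srebf1 acts mainly on fatty acid genes.

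Values are TPM, a transcript's share of all transcripts corrected for length, and groups are given as mean ± SD with n = 3 libraries each. Changes are log2 fold changes of TPM + 1 with adjusted p-values from limma over all 12314 genes tested. Ribosomal protein and ferritin genes together held 18.7% to 19.3% of TPM in control libraries and 35.8% to 41.5% in the 9 deprived ones. TPM are shares of a fixed whole, so a larger share for these genes leaves less for the others. The median change of all genes tested was -0.65 between GD and control, 0.02 between 100 µM and GD, 0.14 between 200 µM and GD, and 0.12 between the doses. Counts are therefore given also after median-of-ratios scaling, which sets the typical gene to no change and brought each of these medians to within 0.02 of 0. GD replicate 3 had the fewest genes at 1 TPM (10551, against 10875 to 12074 in the others), and results that turn on it are named. Of the 9 markers of the labelled myocardial cell, Nkx2-5, Ryr2 and Nppa were at 0 in all control libraries. There Tnnt2, Gata4 (4.82 to 6.58 TPM) and Tnni3 (0.65 to 1.23 TPM) were present, and Myh6, Myh7 and Actn2 were at 0.1 TPM or less. Of the 6 myoblast markers, Myod1 (53.3 to 61.6 TPM), Myog (19.1 to 21.8 TPM), Des, Acta1 and Tnnc2 were present in control, and Myf5 was at 0. The summed muscle and fibroblast markers were lower in every deprived library than in every control library. The 6 myoblast markers summed to 260.35 to 266.49 TPM in control, 28.15 to 31.56 in GD, 21.56 to 28.18 with 100 µM and 30.71 to 39.6 with 200 µM, with Myf5 at 0 in all but the last group. The 9 cardiac markers summed to 137.8 to 161.1, 22.96 to 29.09, 19.5 to 32.76 and 32.38 to 66.18 TPM in the same order, mostly from Tnnt2. The 4 fibroblast markers found of 5 summed to 8330.22 to 9454.97, 414.22 to 756.43, 454.47 to 872.88 and 1279.76 to 1558.16 TPM, nearly all of it Col1a1, with Lum, Dcn and Pdgfra at 2.63 TPM or less in every library. Their part in the results was not tested. Adipocyte markers summed to at most 0.59 TPM and hepatocyte markers to at most 0.23 TPM in any library. In RNA pooled over all cells of a culture, fewer cells of a type and less RNA per cell cannot be told apart.

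Promoters were taken from a table of RefSeq starts on the GRCr8 assembly, in which 28 of the 35 members were matched (Srebf1 with 2 starts). Of these, 4 are shown because they belong to genes that went different ways in the data described further on: Fdps and Acss2, a gene of each branch, Insig1, which rose in deprivation, and Me1, which did not rise with the drug. Each line gives the 250 bases before the transcription start, 5′ to 3′. Capitals mark the sterol regulatory element of the farnesyl type (TCACNCGAG), the CCAAT box (CCAAT), the GC box (GGGCGG) and the E box (CACGTG), each on either strand.
Fdps, chr2:176804817-176805066, minus strand: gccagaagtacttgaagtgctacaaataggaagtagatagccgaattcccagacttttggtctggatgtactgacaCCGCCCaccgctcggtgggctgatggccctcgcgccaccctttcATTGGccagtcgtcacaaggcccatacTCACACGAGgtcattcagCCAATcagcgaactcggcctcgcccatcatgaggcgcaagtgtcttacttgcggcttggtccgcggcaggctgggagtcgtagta
Acss2, chr3:164464453-164464702, plus strand: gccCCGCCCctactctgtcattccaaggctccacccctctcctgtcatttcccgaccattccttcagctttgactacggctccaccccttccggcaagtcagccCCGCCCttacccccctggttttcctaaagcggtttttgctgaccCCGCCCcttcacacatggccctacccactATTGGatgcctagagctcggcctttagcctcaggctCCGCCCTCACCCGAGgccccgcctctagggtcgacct
Insig1, chr4:8057770-8058019, minus strand: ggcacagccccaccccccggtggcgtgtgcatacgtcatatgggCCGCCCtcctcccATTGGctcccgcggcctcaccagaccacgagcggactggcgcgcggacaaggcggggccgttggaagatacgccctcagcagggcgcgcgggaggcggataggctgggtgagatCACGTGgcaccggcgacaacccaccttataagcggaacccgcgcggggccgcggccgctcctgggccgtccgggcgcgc
Me1, chr8:96540245-96540494, minus strand: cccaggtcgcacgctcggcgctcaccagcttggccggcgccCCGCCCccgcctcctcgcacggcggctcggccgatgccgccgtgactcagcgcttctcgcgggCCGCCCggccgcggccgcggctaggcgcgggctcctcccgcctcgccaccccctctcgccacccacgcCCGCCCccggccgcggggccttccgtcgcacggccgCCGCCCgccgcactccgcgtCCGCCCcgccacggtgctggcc

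The farnesyl-type element began 103 bases before the start of Fdps, between a pair of CCAAT boxes, and 31 bases before the start of Acss2, directly after a GC box. It was found in 3 of the 29 promoter entries of members, in Fdps, Acss2 and Srebf1, and in 0.323% of all 33469 promoters of the same length. The other form of the element searched (TCACNCCAC) was in 0 of the 29 entries and in 0.974% of all promoters. A CCAAT box stood in 72.4% of member entries and 34% of all promoters, a GC box in 79.3% and 30.5%, and an E box in 13.8% and 5.59%. Member promoters were also richer in G and C, with a median of 64.0% against 51.2%. The motif strings were settled after a first look at other strings in these promoters, so the shares carry no test. A match is a description of the letters in this window and not a measured site.

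Single regulators went different ways in deprivation. Srebf2 fell, Insig1, whose product holds the complex in the endoplasmic reticulum, rose, and Srebf1 did not pass the test. Of the 5 regulators 3 were lower and 1 was higher, a split near that of all genes tested, of which 67.6% were lower and 14% higher. With the other scaling the regulators split into 1 lower and 4 higher, against 38.5% and 38.5% of all genes. In either setting, 4 of the 5 lay above the median change of all genes.

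Srebf2 was at 57.9, 62.4 and 57.2 TPM in control and at 17.0, 20.3 and 13.8 TPM in GD. It stood at 15.0, 18.4 and 14.1 TPM with 100 µM and at 20.7, 22.1 and 18.1 TPM with 200 µM. The control libraries lay far above all others, while the 3 deprived groups overlapped. The fall from control to GD was -1.75 (SE 0.13, adjusted p = 3.9e-08). The changes from GD of -0.09 at 100 µM (adjusted p = 0.718) and 0.25 at 200 µM (95% limits -0.03 to 0.54, adjusted p = 0.134) did not pass, although the latter passed without GD replicate 2 (0.38, adjusted p = 0.0288). Between the doses it stood at 0.34 (adjusted p = 0.059), which passed without 100 µM replicate 2 (adjusted p = 0.0234) or 200 µM replicate 3 (adjusted p = 0.047).

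Insig1 was at 64.4, 58.9 and 52.4 TPM in control and at 84.1, 85.7 and 70.3 TPM in GD. It was at 57.4, 61.3 and 58.6 TPM with 100 µM and at 43.9, 46.5 and 43.3 TPM with 200 µM. The GD libraries were the highest and the 200 µM libraries the lowest, with no overlap between GD and any other group. It rose by 0.44 in GD (SE 0.09, adjusted p = 0.000423) and fell from GD by 0.43 at 100 µM (adjusted p = 0.00792) and by 0.83 at 200 µM (adjusted p = 1.16e-05). The doses differed by -0.40 (adjusted p = 0.0039). At 200 µM it was below control as deposited (-0.38, adjusted p = 0.00154) and above it after median-of-ratios scaling (0.18, adjusted p = 0.0167), so its place relative to control depends on scaling, whereas the fall from GD was -1.02 with that scaling.

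Srebf1 was at 19.4, 19.9 and 19.2 TPM in control, 21.8, 25.0 and 19.8 TPM in GD, 18.5, 20.1 and 15.3 TPM with 100 µM, and 12.5, 15.9 and 12.1 TPM with 200 µM. The 200 µM libraries were below all control and GD libraries and overlapped those with 100 µM. GD and control did not differ as deposited (0.17, adjusted p = 0.21), and GD was higher after median-of-ratios scaling (0.91, adjusted p = 6.87e-06). Srebf1 fell from GD by 0.68 at 200 µM (SE 0.12, adjusted p = 0.000674) and differed between the doses by -0.39 (adjusted p = 0.0272). The latter lost its call without 100 µM replicate 1 or 2 or 200 µM replicate 1 or 3, with adjusted p from 0.0815 to 0.103.

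Scap and Insig2 had calls that turned on scaling or on single libraries. Scap went from 37.2 ± 3.03 to 25.9 ± 2.03 TPM in deprivation (-0.50, adjusted p = 0.000176), and turned to 0.24 after median-of-ratios scaling (adjusted p = 0.0115). Insig2 was at 10.5 ± 0.88 and 8.75 ± 1.25 TPM. Its change of -0.24 (adjusted p = 0.0478) did not pass without control replicate 1, 2 or 3 or without GD replicate 2 or 3 (adjusted p 0.0525 to 0.174), and turned to 0.45 after that scaling (adjusted p = 0.000169). Neither passed between 200 µM and GD, with 0.06 (95% limits -0.14 to 0.26) for Scap and 0.10 (-0.13 to 0.33) for Insig2. Scap was higher at 200 than at 100 µM (0.28, adjusted p = 0.029), a call lost with median-of-ratios scaling (adjusted p = 0.21) and without 100 µM replicate 1 or 2 or 200 µM replicate 2 (adjusted p 0.0505 to 0.115).

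**Figure D1:**
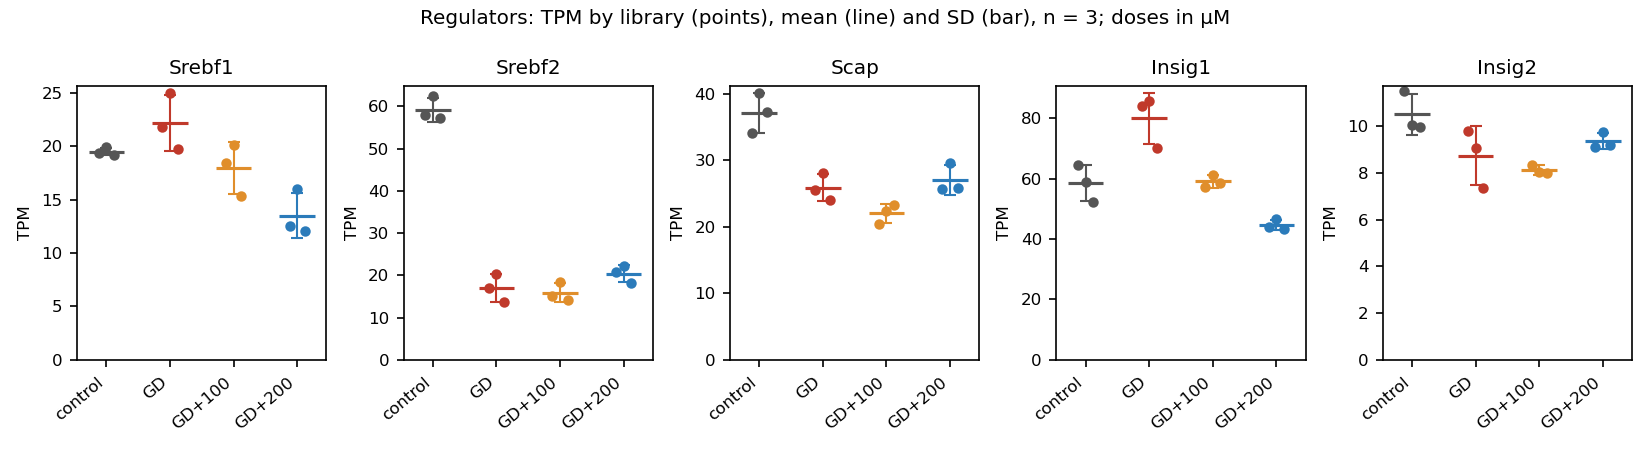
Level of the 5 regulators in TPM (vertical axes, from 0) in each library of the 4 groups, with the mean as a line and the SD as a bar (n = 3). Srebf2 is highest in control (59.1 TPM), while Insig1 is highest in GD (80.0 TPM) and lowest with 200 µM (44.6 TPM).

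The genes of the sterol branch fell together in deprivation. All 19 rows of the branch were lower in GD than in control, and 18 were with median-of-ratios scaling, against 67.6% and 38.5% of all genes. The median change was -1.72 beside -0.65 for all genes tested. Stard4 had passed the filter on low values only through its control libraries, so its lower value in GD was fixed by that filter. Of the other 18 rows 18 were lower, or 17 rescaled, with a median of -1.69. In GD the branch stood at a median of 29.0% of the control mean, from 9.72% for Hmgcs1 to 52.4% for Tm7sf2. The summed TPM of the branch went from 1934 ± 88.8 to 616 ± 33.4.

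The early, mevalonate part of the route held the deepest fall. Hmgcs1, whose product makes the precursor of mevalonate, went from 106, 98.3 and 88.2 TPM in control to 10.3, 11.6 and 6.58 TPM in GD (-3.26, SE 0.20, adjusted p = 5.49e-09). Idi1, the isomerase of the isoprenoid building blocks, went from 21.0, 15.8 and 14.1 TPM to 2.16, 1.66 and 1.48 TPM (-2.69, SE 0.19). In both genes all GD libraries lay far below the lowest control library. Acat2, which joins acetyl-CoA units at the start, fell by 2.65 from 180.3 ± 9.2 TPM to 28.0 ± 3.03 TPM. The kinases Mvk (-1.54) and Pmvk (-1.80), the decarboxylase gene Mvd (-1.19) and the farnesyl diphosphate synthase gene Fdps (-1.43) fell less. Fdps was the most abundant member, at 579 ± 19 TPM in control against 214 ± 4.31 TPM in GD.

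The genes from squalene onward fell over a similar range. Fdft1, which makes squalene, (-1.66), the squalene epoxidase gene Sqle (-1.38) and the lanosterol synthase gene Lss (-1.84) all fell. Among the genes that turn lanosterol into cholesterol, Dhcr7, a reductase of the last steps, went from 48.8, 48.5 and 43.5 TPM to 5.05, 6.41 and 4.68 TPM (-2.92, SE 0.16, adjusted p = 1.82e-09). Hsd17b7 (-2.44) and Nsdhl (-2.32), enzymes of the steps that remove the methyl groups at carbon C-4, followed. The lanosterol demethylase gene Cyp51 (-1.39), Msmo1 (-1.58), the sterol isomerase gene Ebp (-1.39) and the desaturase gene Sc5d (-1.72) lay between. Tm7sf2, a reductase gene, changed least, from 85.3 ± 0.93 to 44.7 ± 1.79 TPM (-0.92), and did not pass after median-of-ratios scaling (-0.16, adjusted p = 0.173). Stard4, a sterol carrier gene, went from 4.47, 4.19 and 4.48 TPM to 0.50, 0.56 and 0.50 TPM.

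**Figure D2:**
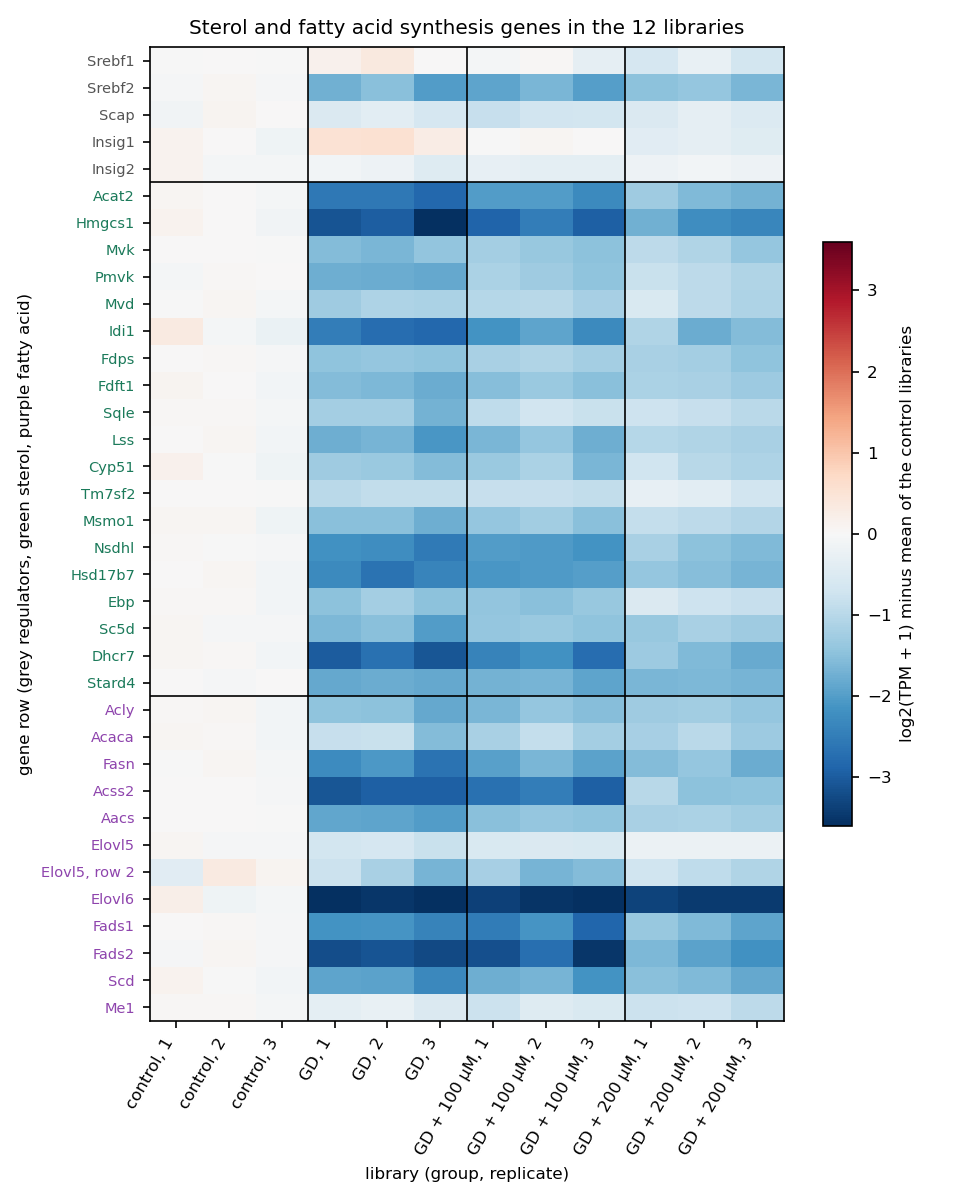
Each of the 36 rows (vertical) in the 12 libraries (horizontal), coloured by log2(TPM + 1) minus the mean of the control libraries, blue for lower and red for higher. Sterol and fatty acid rows are blue in the 9 deprived libraries, and most, though not Me1 or Acaca, are paler with 200 µM than in GD. Insig1 is red in GD.

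Fatty acid genes fell as well, with more spread among them. All 12 rows were lower in GD, against 67.6% of all genes. Rescaled by median of ratios, 9 rows were lower, while Me1 was higher and both Elovl5 rows did not pass, beside 38.5% of all genes lower and 38.5% higher. Elovl6 had passed the filter only through its control libraries, and of the other 11 rows 11 were lower, or 8 rescaled. The median change was -1.99, or -1.92 without Elovl6. The levels in GD were a median of 23.1% of control, from 0.651% for Elovl6 to 76.8% for Me1. The summed TPM went from 969 ± 39.5 to 240 ± 30.7.

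Elongases and desaturases lengthen chains and add double bonds. Elovl6, which extends the product of fatty acid synthase, went from 13.8, 10.4 and 11.1 TPM in control to 0.06, 0.12 and 0.05 TPM in GD, a difference given without its test because the filter had fixed its direction. It was at 0.24 and 0.10 TPM and listed at 0 in the libraries with 100 µM, and at 0.27, 0.17 and 0.17 TPM with 200 µM, so it stayed near 0 in all deprived libraries. Fads2, the first desaturase of polyunsaturated fatty acid synthesis, fell by 3.19 from 302 ± 13.7 to 32.2 ± 1.60 TPM. Fads1 fell by 2.22 and the stearoyl-CoA desaturase gene Scd by 2.05. Elovl5, an elongase of polyunsaturated chains, fell least of this class, from 43.1 ± 1.98 to 26.4 ± 1.90 TPM (-0.69), and stood at 0.06 after median-of-ratios scaling (adjusted p = 0.341). The second row named Elovl5 was at 61.1, 102 and 87.5 TPM in control against 47.8, 35.5 and 24.9 TPM in GD (-1.20, SE 0.22), a wider spread than the first row had. Reads of the 2 rows, and of Scd and its relative Scd2, may have been split between copies by the counting.

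Genes that supply and join the acetyl units ranged from Acss2 to Me1. Acss2, which makes acetyl-CoA from acetate, went from 46.3, 45.9 and 44.1 TPM to 4.51, 5.06 and 5.01 TPM (-2.99, SE 0.14, adjusted p = 4.61e-10). Acly, which makes it from citrate, fell by 1.59 and the acetoacetyl-CoA synthetase gene Aacs by 1.92. Fasn, the fatty acid synthase gene, fell by 2.33 from 57.3 ± 2.82 to 10.7 ± 2.37 TPM. Acaca, the carboxylase gene of the committed step, fell by 1.07, with GD libraries at 7.24, 7.33 and 3.96 TPM against 14.4, 14.0 and 12.6 TPM in control. Me1, the cytosolic malic enzyme gene that supplies NADPH, went from 48.5, 48.4 and 44.7 TPM to 37.0, 39.0 and 32.6 TPM. That was -0.37 as deposited (adjusted p = 0.00219) and 0.38 after median-of-ratios scaling (adjusted p = 8.09e-05), so its direction depends on scaling.

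**Figure D3:**
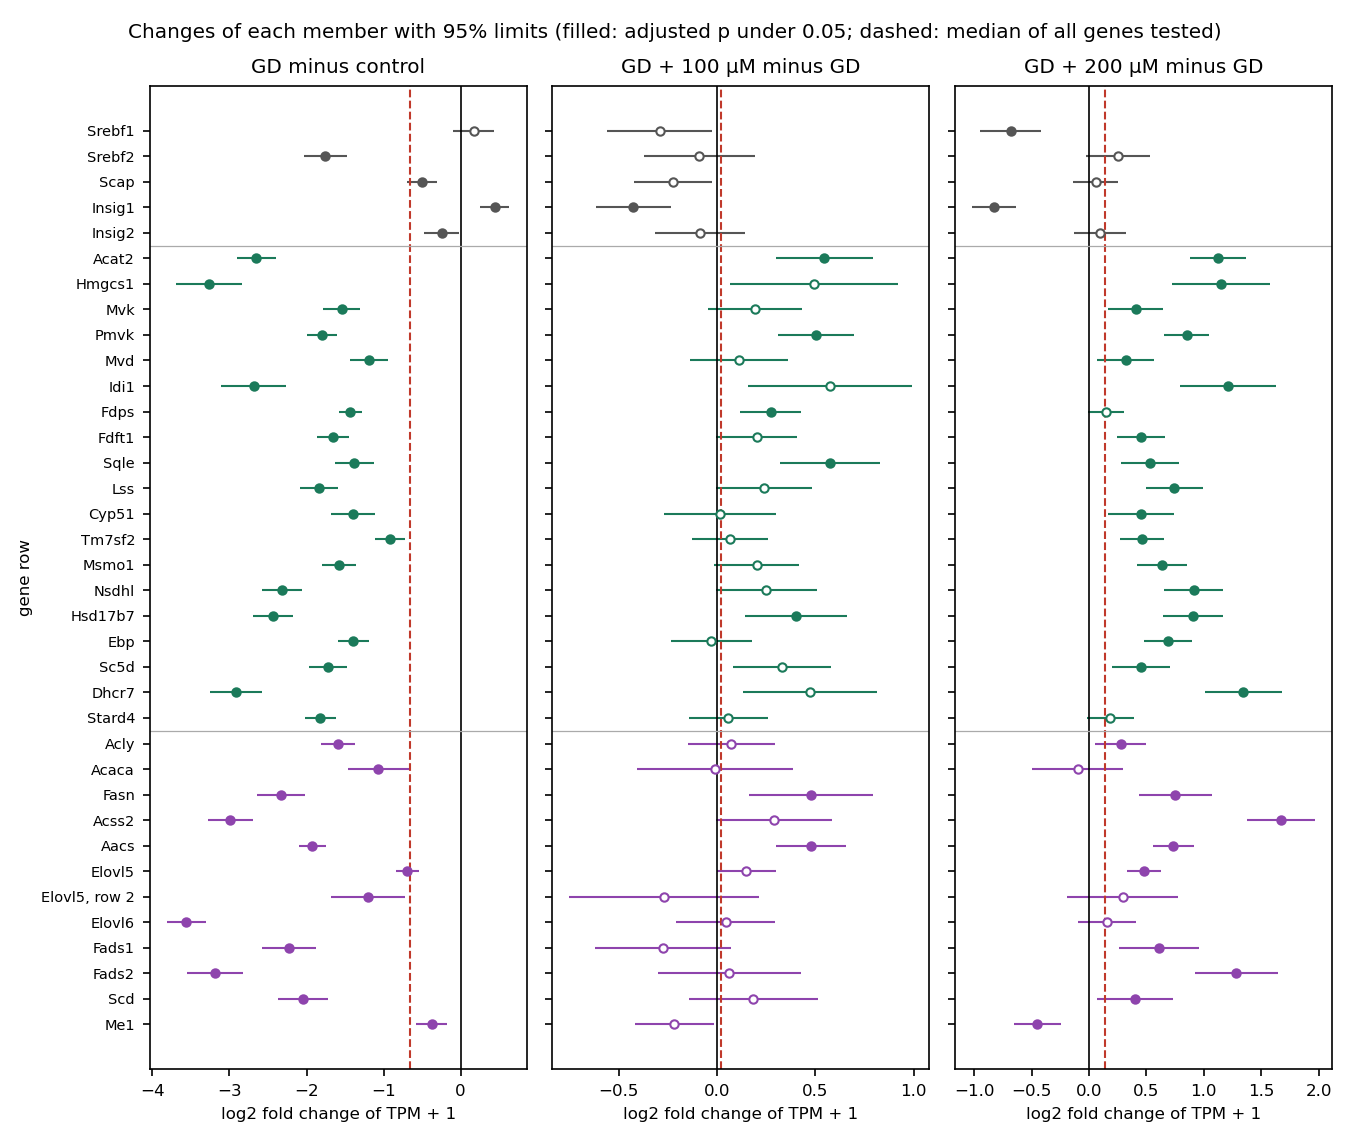
Log2 fold changes (horizontal) of the 36 rows (vertical) with 95% limits, for GD against control and for 100 and 200 µM against GD. Filled points passed at an adjusted p under 0.05, and the dashed line is the median of all genes tested (-0.65, 0.02 and 0.14).

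With 100 µM empagliflozin few members of either branch passed the test against GD, and the branches were not tested against each other. Of 19 sterol rows 5 rose and 0 fell, with a median of 0.25. Of 12 fatty acid rows 2 rose and 0 fell, with a median of 0.07, where 7.51% of all genes rose and 5.46% fell. Pmvk went from 23.5, 23.2 and 22.3 TPM in GD to 36.8, 33.2 and 29.5 TPM (0.50, SE 0.09, adjusted p = 0.00343). Sqle went from 40.2, 40.5 and 28.5 TPM to 50.3, 58.1 and 54.1 TPM (0.58, SE 0.12, adjusted p = 0.00697). In both genes the groups did not overlap, and the share of all genes without such overlap was not counted. Acat2 rose by 0.55 (adjusted p = 0.00805), Fdps by 0.27 (adjusted p = 0.0242) and Hsd17b7 by 0.40 (adjusted p = 0.044).

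In the fatty acid branch Aacs rose from 6.41, 6.28 and 5.75 to 8.62, 9.36 and 8.89 TPM (0.48, SE 0.08, adjusted p = 0.00273), and Fasn by 0.48 (adjusted p = 0.0488). Fads2 stood at 0.06 (95% limits -0.30 to 0.43), Fads1 at -0.27 (-0.62 to 0.07) and Acly at 0.07 (-0.15 to 0.30), none past the test. The sterol count was 3 without 100 µM replicate 1 or 2 (Fdps and Hsd17b7 lost their calls), 4 without GD replicate 1 and 7 with median-of-ratios scaling, where 7.77% of all genes rose and 10.9% fell. Fdps also lost its call without GD replicate 1 (adjusted p = 0.0745) and with that scaling (adjusted p = 0.0683), and Hsd17b7 without 100 µM replicate 3 (adjusted p = 0.132) or GD replicate 2 (adjusted p = 0.137). Fasn lost its call without any 1 of the 3 libraries with 100 µM or without GD replicate 1 or 3. Me1 was lower without GD replicate 3 (-0.29, adjusted p = 0.0471) and with that scaling (-0.26, adjusted p = 0.0126). Of the regulators, Insig1 alone fell at this dose, and 2 fell with that scaling.

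At 200 µM nearly the whole sterol branch was above GD. Of 19 rows 17 rose and 0 fell, with a median of 0.64 beside 0.14 for all genes, of which 32% rose and 11.4% fell. Rescaled by median of ratios, 14 were up and 0 down, with a median of 0.44, where 22.4% of all genes rose and 24.4% fell. Without GD replicate 3 the count was 15, as Mvd and Cyp51 did not pass. The summed TPM was 870.4 ± 104, and the branch stood at a median of 42.0% of the control mean.

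On the scale of TPM + 1 Dhcr7 showed the highest rise of the branch, from 5.05, 6.41 and 4.68 TPM in GD to 18.2, 15.0 and 12.6 TPM (1.35, SE 0.16, adjusted p = 2.17e-05). That scale understates the change of Idi1, which was at 1.77 ± 0.35 TPM in GD. Idi1 rose to 7.38, 4.11 and 5.02 TPM (1.21, adjusted p = 0.000261), Hmgcs1 to 28.6, 19.7 and 18.3 TPM (1.15, adjusted p = 0.000439) and Acat2 to 73.1, 59.7 and 54.5 TPM (1.12, adjusted p = 7.59e-06). Nsdhl (0.91), Hsd17b7 (0.91), Pmvk (0.85), Lss (0.74), Ebp (0.69) and Msmo1 (0.64) followed. Every library with 200 µM was above every GD library and below every control library in all rows of the branch but Fdps. Of all genes 32% rose at this dose, and the share with such an order was not counted. The rows that did not pass were Fdps, at 258, 247 and 210.3 TPM (0.15, 95% limits -0.01 to 0.30, adjusted p = 0.115), and Stard4 (0.19, -0.02 to 0.39). Fdps passed without 200 µM replicate 3 (0.23, adjusted p = 0.00961). Mvd (0.32) lost its call without GD replicate 1 or 3 or 200 µM replicate 1 or 2 (adjusted p 0.051 to 0.165), and Cyp51 (0.45) without GD replicate 3 or 200 µM replicate 1 (adjusted p 0.0604 and 0.07). After median-of-ratios scaling Mvk, Mvd and Cyp51 did not pass.

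The fatty acid branch divided at 200 µM. Of 12 rows 8 rose, 1 fell and 3 did not pass, where 32% of all genes rose and 11.4% fell. The median was 0.44 beside 0.14 for all genes. Rescaled by median of ratios, the branch had 6 rows up and 1 down, where 22.4% of all genes rose and 24.4% fell. Acss2 went from 4.51, 5.06 and 5.01 TPM in GD to 22.1, 15.7 and 15.9 TPM (1.67, SE 0.14, adjusted p = 1.22e-06), the steepest rise among the members. Fads2 rose to 97.3, 78.5 and 66.4 TPM (1.29, SE 0.17, adjusted p = 5.5e-05). Fasn (0.75), Aacs (0.74), Fads1 (0.61) and the first Elovl5 row (0.48) rose less, and the latter, at 37.3, 36.9 and 37.0 TPM, reached 85.9% of its control mean.

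Acly (0.28) and Scd (0.40) passed narrowly. They lost their calls after median-of-ratios scaling and without GD replicate 3 or 200 µM replicate 1 or 2, with adjusted p of 0.111 to 0.173 over these libraries. Without GD replicate 3 the count was 6. Acaca, at 5.34, 6.42 and 4.90 TPM, overlapped GD (-0.10, 95% limits -0.49 to 0.30, adjusted p = 0.696) and was lower without GD replicate 3 (-0.34, adjusted p = 0.0468), the lowest of the GD libraries for this gene. Elovl6 (0.16, -0.09 to 0.41) and the second Elovl5 row (0.30, -0.19 to 0.78) did not pass. Me1 fell to 27.0, 27.5 and 24.3 TPM, below every GD library (-0.45, SE 0.09, adjusted p = 0.00174), and to -0.64 after median-of-ratios scaling.

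**Figure D4:**
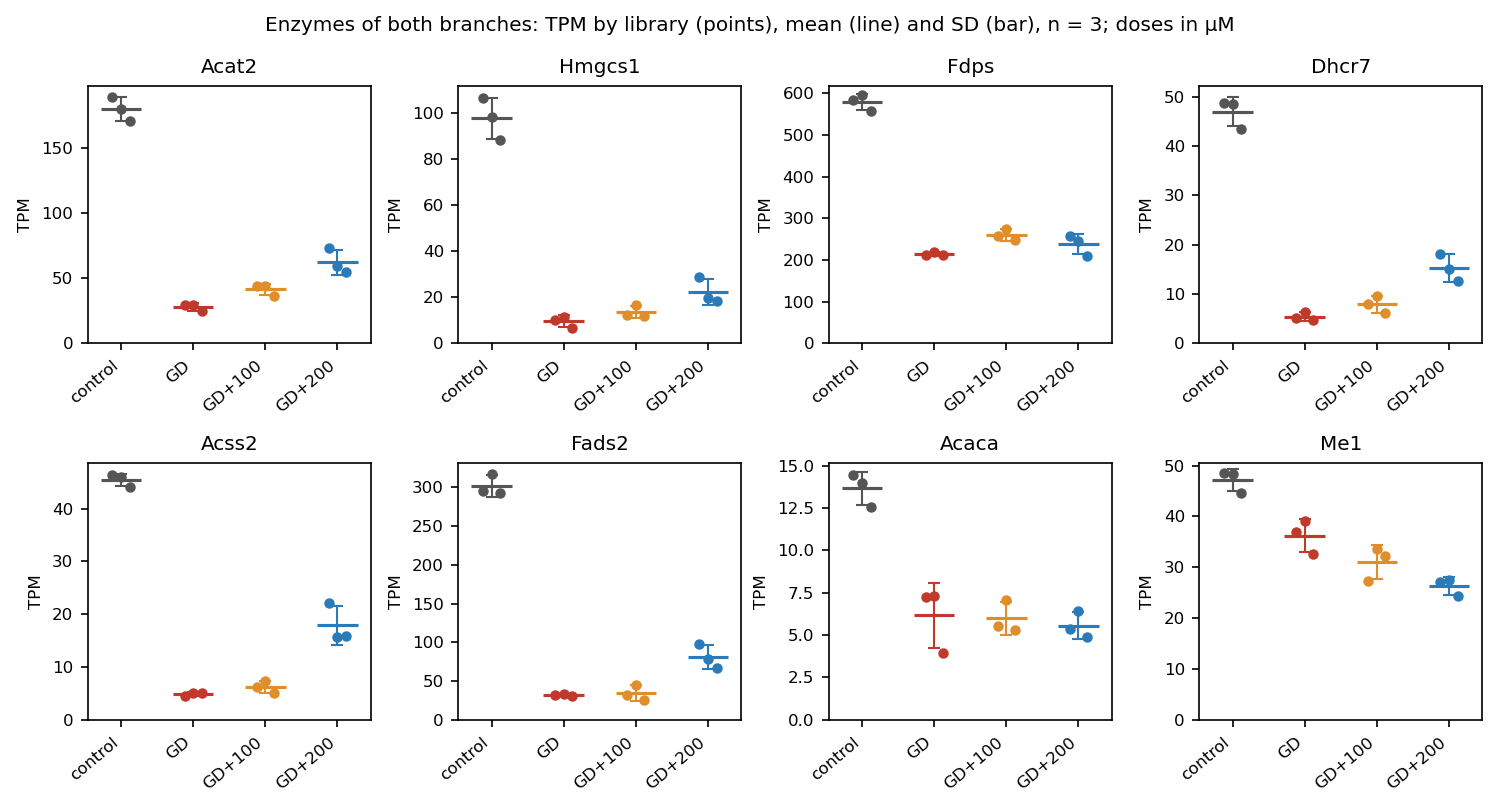
Level of 8 enzyme genes in TPM (vertical axes, from 0) in each library of the 4 groups, with the mean as a line and the SD as a bar (n = 3). Acss2 and Fads2 rise between 100 and 200 µM, Fdps stays between 210.3 and 275 TPM in the deprived groups, and Me1 is lowest with 200 µM (26.2 TPM).

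The doses themselves differed for 12 sterol rows, higher at 200 µM in each, and for 5 fatty acid rows, all higher, against a background of 25.7% higher and 8.06% lower among all genes. Rescaled by median of ratios, the counts were 9 higher and 2 lower (Fdps and Sqle) in the sterol branch, and 4 higher and 1 lower (Me1) in the fatty acid branch, against 18.7% and 18.4% of all genes. Acss2 (1.38, adjusted p = 1.11e-05), Fads2 (1.22, adjusted p = 0.000145), Fads1 (0.88, adjusted p = 0.00106) and Dhcr7 (0.87, adjusted p = 0.000969) differed most. Sqle, at 54.2 ± 3.93 TPM with 100 µM and 52.5 ± 4.13 TPM with 200 µM, did not pass between the doses as deposited (-0.05, 95% limits -0.30 to 0.21), nor did Fdps (-0.13, -0.28 to 0.03). Acaca (-0.09) and Elovl6 (0.12) also did not pass. Hmgcs1 and Idi1 did not pass without 100 µM replicate 1 or 3, Cyp51 without 100 µM replicate 3, and Aacs without 100 µM replicate 1 or 3 or 200 µM replicate 2. Without 200 µM replicate 1, Hmgcs1, Pmvk, Idi1, Cyp51 and Aacs lost their calls (adjusted p 0.0511 to 0.107), and the sterol count was 8.

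Side by side, the fatty acid branch lay below the sterol branch in all 9 deprived libraries. Measured as the median over rows of log2(TPM + 1) against the control mean, the sterol branch was at -1.63, -1.65 and -1.84 in GD, at -1.41, -1.36 and -1.51 with 100 µM, and at -1.08, -1.16 and -1.32 with 200 µM. The fatty acid branch was at -1.88, -1.90 and -2.17, at -1.70, -1.66 and -1.75, and at -1.24, -1.33 and -1.43. All genes tested lay at -0.60, -0.56 and -0.81 in GD, at -0.69, -0.58 and -0.59 with 100 µM, and at -0.49, -0.47 and -0.54 with 200 µM. Over all genes too, the libraries with 200 µM thus lay above every GD and every 100 µM library. By the branch medians the groups did not overlap within either branch. By summed TPM some did: fatty acid sums were 204 to 260.1 in GD, 211 to 266 with 100 µM and 311 to 398 with 200 µM, and sterol sums were 684 to 786 with 100 µM and 768 to 977 with 200 µM. Between GD and 100 µM the median change over the 12 fatty acid rows was 0.07, although the branch medians did not overlap. Those rows include Elovl6, which passed the filter only through control libraries, and Elovl5 on 2 rows. The branch medians are a description of chosen genes without a test, and all groups are set against the same control libraries.

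**Figure D5:**
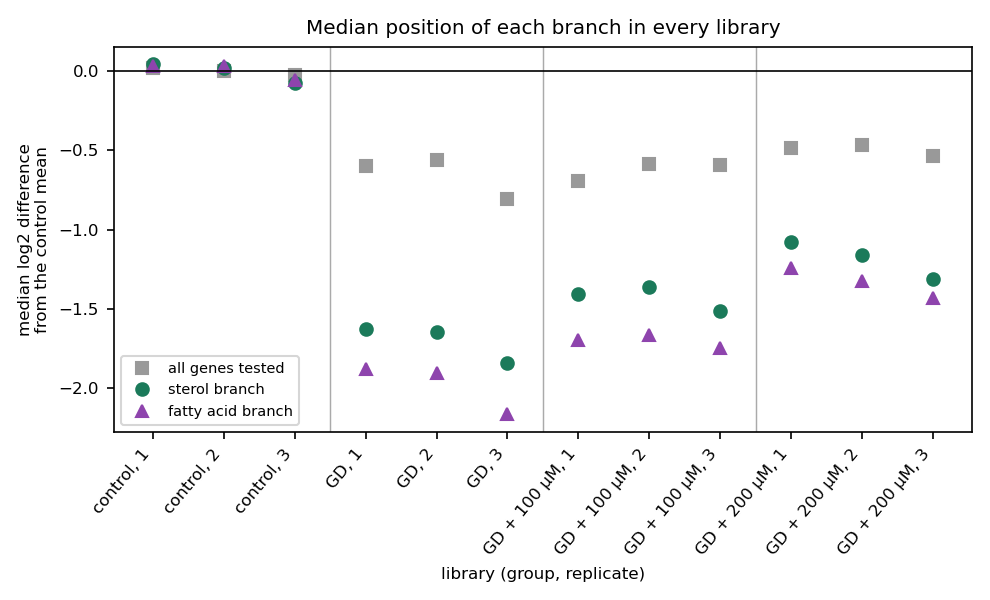
Median over the rows of each branch, and over all genes tested, of log2(TPM + 1) minus the control mean (vertical) in each of the 12 libraries (horizontal). The sterol branch runs from -1.84 to -1.08 and the fatty acid branch from -2.17 to -1.24 in the deprived libraries, with all genes between -0.81 and -0.47.

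Neither dose returned the branches to control. All 19 sterol and 12 fatty acid rows were lower than control at 100 µM, where 66.6% of all genes were lower and 14.1% higher, and at 200 µM, where 62.8% were lower and 13.4% higher. Stard4 and Elovl6 had passed the filter only through their control libraries, which fixed their direction here. Of the other 18 sterol and 11 fatty acid rows, 18 and 11 were lower at each dose. Without Stard4 and Elovl6 the rescaled counts were 16 and 9 at 100 µM and 15 and 9 at 200 µM. Rescaled by median of ratios, 17 sterol rows were lower at 100 µM, where 38.2% of all genes were lower and 38.4% higher, and Sqle and Tm7sf2 did not pass. At 200 µM 16 were lower, beside 35.6% lower and 35.3% higher among all genes, and Mvd, Tm7sf2 and Ebp did not pass. With that scaling 10 fatty acid rows were lower at each dose, and the first Elovl5 row was higher at 100 µM (0.18, adjusted p = 0.0134) and at 200 µM (0.35, adjusted p = 0.000141), against -0.21 as deposited at 200 µM. Relative to the control mean, levels at 200 µM ran from 16.7% (Stard4) to 73.2% (Tm7sf2) in the sterol branch and from 1.73% (Elovl6) to 85.9% (Elovl5) in the fatty acid branch.

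Other genes around the pathway were less uniform. Of 63 further symbols listed, 61 were found and 48 tested, of which 36 fell and 6 rose in GD, with a median of -0.89, beside 67.6% lower and 14% higher among all genes. The rescaled values gave 23 lower and 16 higher, beside 38.5% and 38.5%. These counts include Lpin1, at 2.38, 2.16 and 2.19 TPM in control and 0.68, 1.08 and 0.52 TPM in GD. It had passed the filter only through its control libraries, so its direction in GD was not independent of that filter. Slc25a1, the mitochondrial citrate carrier gene (-2.05), Tmem97, a sterol-responsive membrane protein gene (-2.47), and the desaturase gene Scd2 (-2.85) fell. Npc2, which carries cholesterol out of lysosomes (1151 ± 45.4 to 1597 ± 9.40 TPM, 0.47), and the sterol receptor gene Nr1h2 (0.54) rose. Of the 7 genes that cut or turn over the regulators or their complex, 4 fell and 0 rose, against the same 67.6% and 14%.

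With 100 µM 5 of the 48 rose and 3 fell, beside 7.51% and 5.46% of all genes. With 200 µM 17 rose and 5 fell, beside 32% and 11.4%, or 15 and 15 with median-of-ratios scaling, beside 22.4% and 24.4%. Abca1, the cholesterol export pump gene, fell in GD (-1.25), rose at 100 µM (0.49, adjusted p = 0.0327) and reached 6.21, 5.66 and 4.91 TPM at 200 µM (0.99, adjusted p = 7.75e-05) beside 6.87 ± 0.21 TPM in control. Slc25a1 rose by 0.50 and 0.84 at the 2 doses, Tmem97 by 0.45 at 100 µM, and Pcyt2, of phospholipid synthesis, by 0.97 at 200 µM. Scd2 rose at 200 µM (0.78, adjusted p = 0.00709). Lipa, the lysosomal lipase gene, fell at 100 µM (-0.53), and Npc2 fell at both doses (-0.17 and -0.20). Erlin1, whose product takes part in the turnover of endoplasmic reticulum proteins, fell at 200 µM from 28.9, 30.0 and 23.0 TPM to 14.7, 19.3 and 14.3 TPM (-0.73, adjusted p = 0.000324) and was lower at 200 than at 100 µM (-0.54). Plin2, a lipid droplet coat gene (0.99), and Mylip, whose product degrades lipoprotein receptors (1.17), were higher at 200 than at 100 µM. Against control, Tmem97 (-2.02 and -2.01) and Slc25a1 (-1.56 and -1.21) were still lower at 100 and 200 µM, and Nr1h2 (0.40 and 0.47) and Npc2 (0.30 and 0.28) higher.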

How the data were processed

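RNA-seq of total RNA from 12 libraries in 4 groups was analysed. The deposited table holds 1 column of TPM per library, made by the authors with HISAT2 and StringTie per the submitters' processing notes. The TPM unit was taken from the values, whose columns sum to 946400.5 to 981389.8. Tool versions, genome build, gene models and strandedness were not given in the sources used here. TPM keep no read numbers, so depth is unknown. Tests covered the 12314 rows that reached 1 TPM in 3 or more libraries, on the scale log2(TPM + 1), which understates changes of low genes, with limma-trend (limma 3.58.1, R 4.3.3). One model held all 12 libraries, with 1 mean per group, two-sided tests and Benjamini-Hochberg adjustment within each of 6 comparisons, called at 0.05. The fit was tested on simulated data. The members, lists and promoter motifs were chosen with earlier results of these data known. All members are reported. Of further genes, the text names the 2 with the smallest p in each direction per comparison, and Abca1 and Scd2. A further gene that the rule names is not reported here. Alternatives were 3 other scalings, a pseudocount of 0.1, no filter, a filter of 5 TPM, no variance trend, the compared groups alone, the replicate number as a term, and each library left out.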

Additional observations from a re-analysis of the deposited data

How the results depend on the processing

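Of 3216 values of single members under the alternatives, 2987 kept direction and side of the threshold, 119 lost and 43 gained a call, and the rest turned in sign. Of these turns 37 were of values called under neither setting, 33 of them in comparisons among the deprived groups, and 30 were of values called under at least 1, all in comparisons with control and given here. For GD against control, median-of-ratios scaling gave Scap 0.24, Insig2 0.45, Elovl5 0.061 and Me1 0.38, quantile normalization gave Scap 0.13, Insig2 0.59 and Me1 0.21, and values without ribosomal and ferritin genes gave Insig2 0.13 and Me1 0.028. For 100 µM against control the same 3 gave Srebf1 0.58 and 0.64 (the first 2 only), Insig2 0.33, 0.49 and 0.028, Elovl5 0.18 and 0.070, and Me1 0.13 and 0.0095. For 200 µM against control they gave Srebf1 0.0345 and 0.087, Scap 0.11 and 0.069, Insig1 0.18 and 0.068, Insig2 0.37 and 0.49, Tm7sf2 0.11 (median-of-ratios only), and Elovl5 0.35, 0.28 and 0.12. These scalings raise changes against control by construction.

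Regulators also moved in count against control with median-of-ratios scaling. At 100 µM they went from 3 lower and 0 higher to 1 and 3, where all genes went from 66.6% and 14.1% to 38.2% and 38.4%. At 200 µM they went from 4 and 0 to 1 and 2, where all genes went from 62.8% and 13.4% to 35.6% and 35.3%. Of the branches, fatty acid rows higher than control were 1 in place of 0 after median-of-ratios scaling in each of the 3 comparisons with control, and 1 after quantile normalization for GD and for 200 µM. For 100 µM against GD, sterol rows higher were 3 without a filter and 3 to 6 over left-out libraries (5 as reported). Fatty acid rows higher were 1 without a filter or without the variance trend, 0 in the compared groups alone and 1 to 2 over left-out libraries (2 as reported), and rows lower were 1 after median-of-ratios scaling or quantile normalization and 0 to 1 over left-out libraries. For 200 µM against GD, fatty acid rows lower were 2 after quantile normalization and 1 to 2 over left-out libraries. Between the doses, sterol rows lower were 2 after median-of-ratios scaling, and fatty acid rows lower 1 after median-of-ratios scaling, quantile normalization or removal of ribosomal and ferritin genes and 0 to 1 over left-out libraries. Sterol rows higher between the doses were 8 to 15 over left-out libraries. The cause was not tested.

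Replicate numbers were not shown to pair the libraries, as deviations of same-numbered libraries correlated at -0.09 to 0.21. With replicate block, 19 sterol rows were lower in GD, 6 were higher at 100 µM and 17 at 200 µM against GD. With that block Srebf2 passed at 200 µM against GD (adjusted p = 0.031) and between the doses (adjusted p = 0.00935), and Hsd17b7 at 100 µM did not (adjusted p = 0.0525). Leaving out a control library removed Stard4 and Elovl6 from the test through the filter.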
